A study of Rattus norvegicus with 9 samples.

Results

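Solute carriers are the membrane proteins that move amino acids, sugars, ions, metals, vitamins and metabolites across the plasma membrane and the membranes of organelles. Their genes carry the prefix Slc, a family number and a member number. Probe sets with exactly 1 gene symbol of that form were taken from a table of rat adrenal medulla arrays, without the vesicular monoamine carriers Slc18a1 and Slc18a2, the noradrenaline carrier Slc6a2 and the glucose carrier Slc2a1. The rule gave 270 genes on 369 probe sets, and 199 of them had a probe set above the dimmest 30% of the array. These 199 genes, each represented by its brightest probe set, were followed among 11287 genes tested. They came from 46 families and were sorted by substrate, mostly by family, into 13 classes. Slc66a2 and Slc66a3 had no settled substrate, and Slc7a6os and Slc4a1ap are named after a carrier without being one. The members nearest the filter were Slc22a7, at a mean log2 level of 8.52, just above the threshold of 8.51, and Slc34a1, at 8.50, just below it. Of the 71 genes left out as dim, a fit without the filter called 0 after 1 session by limma, when 6.7% of all genes passed, and after 6 sessions it called Slc16a8 and Slc25a34, when 18% did.

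The tissue came from adult Rattus norvegicus of 280 to 320 g, although some label fields name mouse or brain. Control rats (3 arrays) were not stressed, the rats labelled 1XIMO (3 arrays, here IMO_1x) were immobilized in 1 session of 2 h, and those labelled 6XIMO (3 arrays, here IMO_6x) were immobilized for 2 h on each of 6 days. Both adrenal medullae were dissected after the last session, and no genotype, strain or drug is given for any group. The labels do not state whether each array holds a separate animal, so p-values reflect only the scatter among these arrays, which may be technical.

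As background, chromaffin cells of the adrenal medulla make catecholamines from tyrosine, which large neutral amino acid carriers bring into the cell, and they use ascorbate as a cofactor in the step from dopamine to noradrenaline. Carriers of the plasma membrane such as Slc7a5 and Slc7a11 work as exchangers bound to the partner Slc3a2. Carriers of the Slc25 family mostly sit in the inner mitochondrial membrane, where they exchange nucleotides, phosphate, amino acids and organic acids with the cytosol.

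Levels are given as log2(intensity + 16), and differences on that scale understate the change of dim probe sets. The IMO_6x arrays stood apart from the others before any gene was compared. The actin 3′/5′ ratio, which rises when labelled RNA is incomplete, was 1.45 to 2.16 in the control and 1.57 to 1.99 in the IMO_1x arrays, and 231, 6.11 and 8.87 in IMO_6x replicates 1, 2 and 3. Across genes, the correlation of IMO_6x replicate 1 with each other array was 0.604 to 0.730, and among the other 8 arrays it was 0.854 to 0.984. The members' median SD over the arrays of a group was 0.244 in control, 0.227 in IMO_1x and 0.659 in IMO_6x. The fit shares 1 spread among the 3 groups. Of 8 chromaffin cell markers 7 were used. Their summed intensity was 289400 to 446500 in control, 274500 to 550000 in IMO_1x and 984000 to 2358000 in IMO_6x. Of 12 adrenal cortex markers 10 were used. Their sums were 402300 to 581500, 339600 to 840500 and 1190000 to 2128000. Chromaffin markers passed the test in 0 of 7 cases after 1 session and cortex markers in 1 of 10, up. After 6 sessions 4 chromaffin markers rose and 0 fell, and 6 cortex markers rose and 1 fell. Of the markers of Schwann cells and glia (4 measured), endothelium (5), leukocytes (5), fibroblasts (6), erythrocytes (3) and adipocytes (2), 0 passed after 1 session in limma. After 6 sessions 1 fell in each of the first 3 of these lists and 1 fibroblast marker rose. RNA completeness, tissue makeup and the treatment cannot be told apart in comparisons with IMO_6x, and their part in the results was not tested. In bulk tissue fewer cells of a type and less RNA per cell cannot be told apart.

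After 1 session of immobilization 7 of the 14 members that rose were carriers of amino acids or peptides. Of 199 members 14 rose and 3 fell against control at a Benjamini-Hochberg adjusted p under 0.05 in limma, which is 8.54% of the members, against 9.51% of all genes tested. By direction, 7.04% of members rose, against 4.2% of all genes, and 1.51% fell, against 5.31%. The median log2 change was -0.14 over the members and -0.13 over all genes. Of 32 amino acid and peptide carriers 7 rose and 0 fell, with a median change of 0.22, which is 0.35 above that of all genes. Of 36 members of the mitochondrial carrier family 2 rose and 2 fell, of 31 carriers of inorganic ions 2 rose, of 9 carriers of monocarboxylates and other organic acids 2 rose, of 25 metal carriers 1 rose and of 12 sugar carriers 1 fell. No member of the other classes passed the test. All 17 members that passed had groups without overlap, as had 36 members above and 55 below control in all, or 18.1% and 27.6%, against 13.4% and 29.5% of all genes.

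The count after 1 session depended on single arrays. It was 10, 9 and 7 without control replicate 1, 2 or 3, and 10, 8 and 10 without IMO_1x replicate 1, 2 or 3. No share of all genes is given for these fits, so their counts are not results about the members. Without IMO_6x replicate 1 the count was 61, with 29 up and 32 down, when 30.2% of all genes passed, 9.84% up and 20.3% down. All 17 members were among these 61. With each array centred on its median, which moves the median change of all genes from -0.13 to 0.00, 7 rose and 0 fell, against 1.4% and 0.594% of all genes. Those 7 were Slc1a4, Slc6a17, Slc25a25, Slc7a11, Slc20a1, Slc16a3 and Slc4a11.

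**Figure D1:**
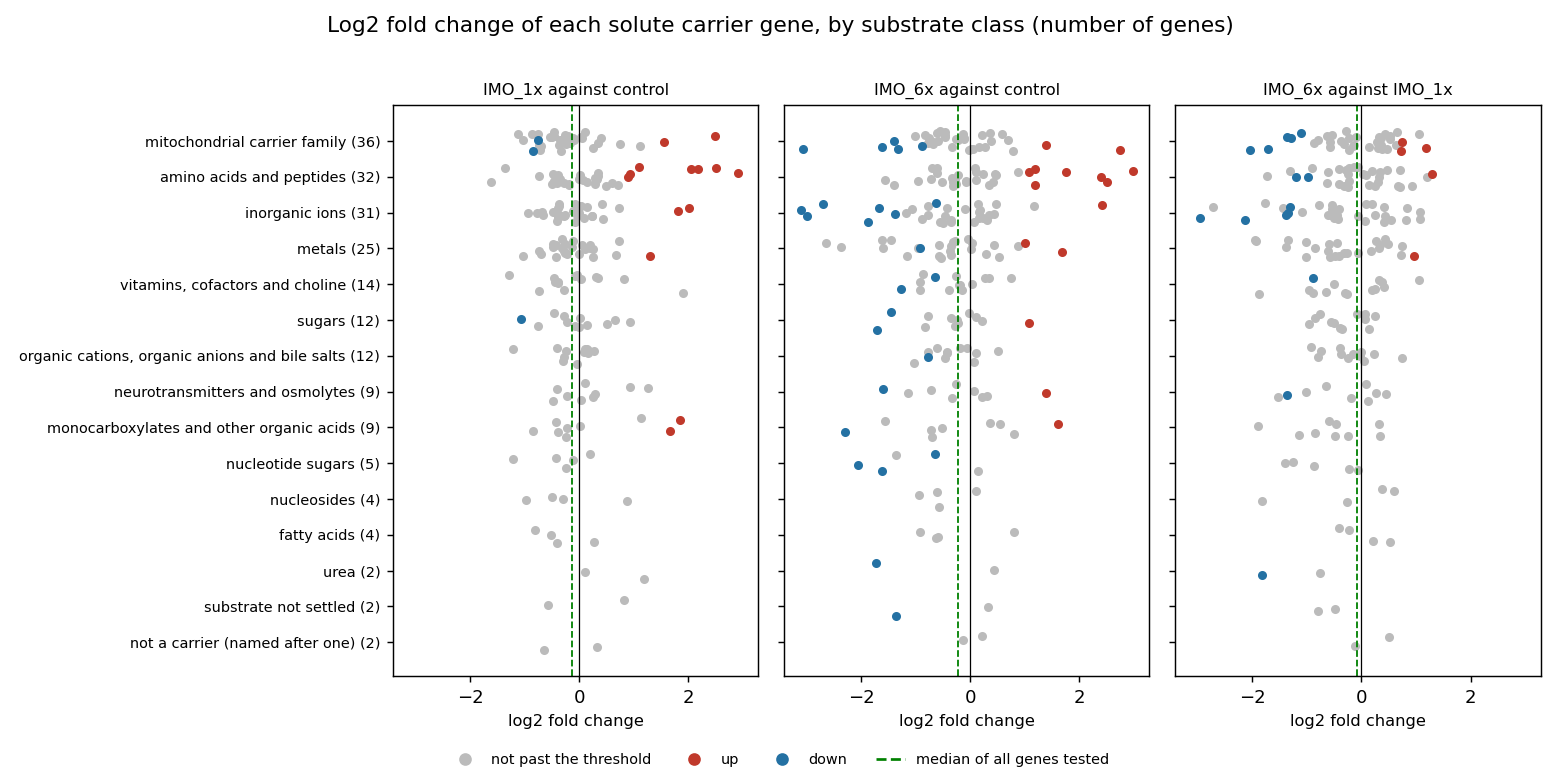
Log2 fold change of each of the 199 members in the 3 comparisons, 1 point per gene, in rows by substrate class with the number of genes in each; red and blue points passed the limma test up and down, and the dashed green line is the median of all genes tested. Amino acid carriers hold 7 of the 14 rises after 1 session, and falls among the ion carriers are seen after 6 sessions.

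Among the amino acid carriers, Slc1a4, a neutral amino acid exchanger for alanine, serine and cysteine, showed the largest rise after 1 session. Its log2 level was 9.82, 9.37 and 9.13 in the control arrays, 12.56, 12.21 and 12.31 in IMO_1x and 12.06, 12.06 and 11.73 in IMO_6x. The control arrays lay below all 6 arrays of stressed rats. The rise was 2.92 ± 0.23 (SE), or 7.56-fold, after 1 session (adjusted p = 9.3e-05) and 2.51 ± 0.23 after 6 (adjusted p = 0.000248). Slc6a17, a carrier of neutral amino acids into synaptic vesicles, was at 11.36, 11.90 and 11.04 in control, 13.59, 14.04 and 14.21 in IMO_1x and 14.70, 14.46 and 14.08 in IMO_6x. Again no control array reached the stressed groups, and the 2 stressed groups overlapped. It rose by 2.51 ± 0.28 after 1 session (adjusted p = 0.000618) and by 2.98 ± 0.28 after 6 (adjusted p = 0.000232).

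Slc7a5, the large neutral amino acid carrier LAT1, which takes up tyrosine among others, was at 11.38, 11.15 and 10.58 in control, 12.84, 13.31 and 13.08 in IMO_1x and 12.01, 13.34 and 13.05 in IMO_6x. It was higher on every stressed array than on any control array, by 2.04 ± 0.35 after 1 session (adjusted p = 0.00626) and by 1.76 ± 0.35 after 6 (adjusted p = 0.00659). Its partner Slc3a2, the heavy chain of these exchangers, overlapped between the groups, at 14.70, 14.39 and 14.42 in control, 15.01, 14.78 and 14.60 in IMO_1x and 13.07, 14.83 and 14.63 in IMO_6x. The Slc3a2 changes of 0.29 ± 0.41 and -0.32 ± 0.41 did not pass (adjusted p = 0.81 and 0.6). Slc7a11, the exchanger that brings in cystine against glutamate with the same partner, was at 9.26, 8.70 and 8.94 in control and 11.28, 10.93 and 11.24 in IMO_1x. The IMO_6x arrays were at 10.47, 9.05 and 10.01, with replicate 2 within the control range. Slc7a11 rose by 2.18 ± 0.38 after 1 session (adjusted p = 0.00734), and its difference of 0.88 ± 0.38 after 6 did not pass (adjusted p = 0.123). The drop from 1 to 6 sessions, -1.31 ± 0.38, did not pass either (adjusted p = 0.0584), although the groups did not overlap. Without IMO_6x replicate 1 it passed at -1.62 (adjusted p = 0.0047).

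The sodium-coupled carriers Slc38a1 and Slc38a2, which take up glutamine, alanine and other small neutral amino acids, rose less. Slc38a2 was at 13.99, 13.77 and 13.66 in control, 14.86, 14.68 and 14.68 in IMO_1x and 14.63, 15.21 and 15.13 in IMO_6x. All stressed arrays lay above the controls, by 0.93 ± 0.22 after 1 session (adjusted p = 0.0265) and 1.18 ± 0.22 after 6 (adjusted p = 0.00509). With the replicate number as a block, the Slc38a2 rise after 1 session no longer passed (adjusted p = 0.0536). Slc38a1 was at 11.15, 11.77 and 11.49 in control, 12.20, 12.39 and 12.49 in IMO_1x and 12.20, 12.89 and 12.57 in IMO_6x. It too was higher on every stressed array, by 0.89 ± 0.24 (adjusted p = 0.0428) and 1.08 ± 0.24 (adjusted p = 0.0102). Slc7a14, a member of the cationic amino acid carrier family, rose in steps. Its levels were 9.68, 10.45 and 9.70 in control, 10.68, 11.25 and 11.18 in IMO_1x and 12.08, 12.76 and 12.16 in IMO_6x, with no overlap between any 2 groups. Slc7a14 rose by 1.09 ± 0.30 after 1 session (adjusted p = 0.0471), by 2.39 ± 0.30 after 6 (adjusted p = 0.000838) and by 1.30 ± 0.30 between the stressed groups (adjusted p = 0.0274). The step between the stressed groups passed in 4 of the 9 fits without 1 array. It failed without any single IMO_1x replicate, without IMO_6x replicate 2 or 3, and with centred medians.

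Leaving out each of the 9 arrays in turn, Slc1a4, Slc6a17, Slc7a5 and Slc7a11 passed after 1 session in 9 of 9 fits. Slc7a14 and Slc38a2 passed in 3 of 9 fits and Slc38a1 in 2 of 9. None of these 3 passed without control replicate 1 or 3, or without any single IMO_1x replicate. Slc38a1 and Slc38a2 also failed without control replicate 2, and Slc7a14 and Slc38a1 without IMO_6x replicate 3. After 6 sessions Slc1a4, Slc6a17, Slc7a5, Slc7a14, Slc38a1 and Slc38a2 passed in 9 of 9. With centred medians Slc7a5, Slc38a1 and Slc38a2 did not pass after 6 sessions (adjusted p = 0.102, 0.196 and 0.16).

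**Figure D2:**
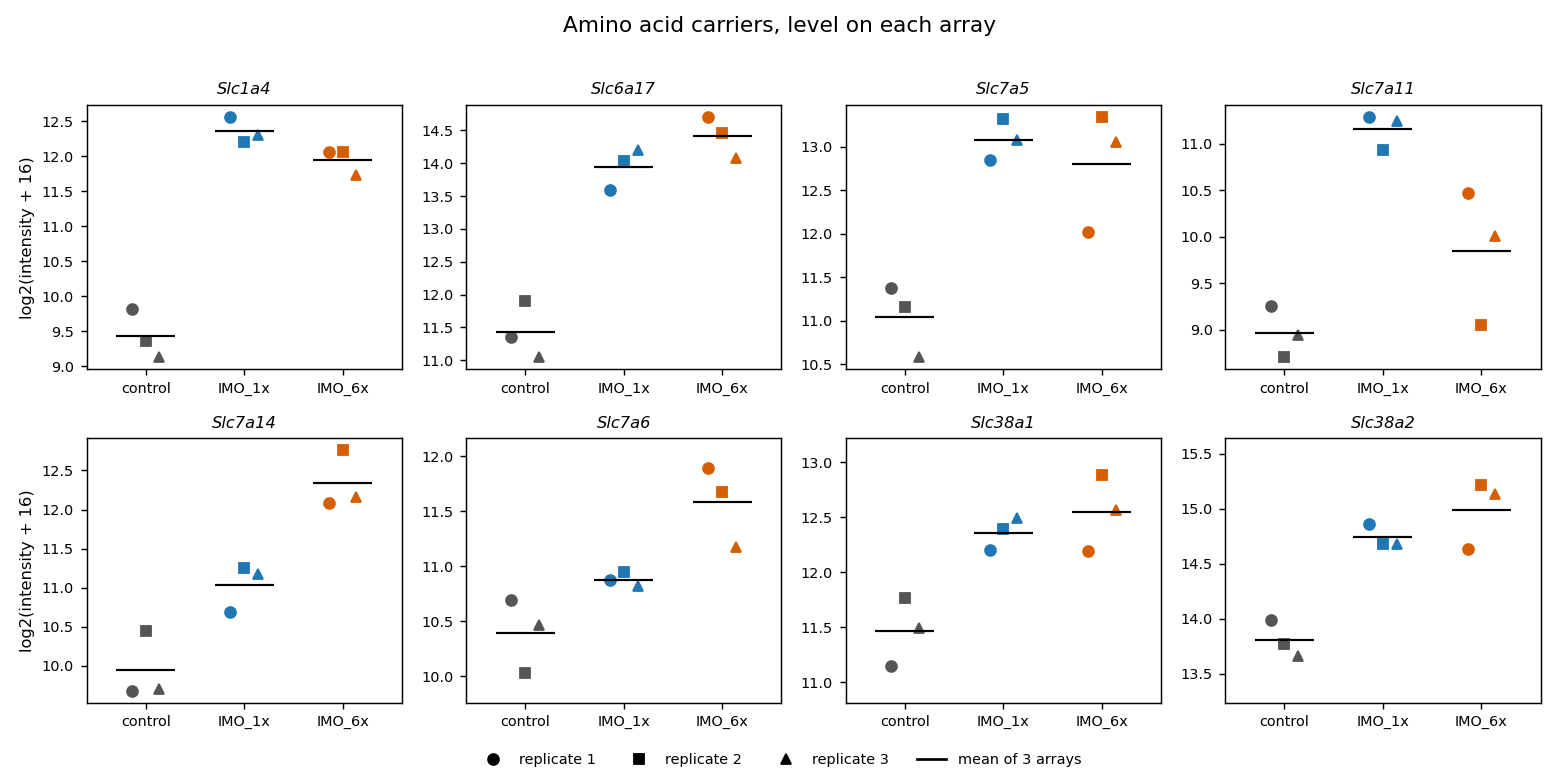
Log2(intensity + 16) of 8 amino acid carriers on each of the 9 arrays, 1 panel per gene, with circles, squares and triangles for replicates 1, 2 and 3 and a bar at the mean of 3 arrays. The vertical axes differ between panels and do not start at 0. The 3 control arrays lie below all stressed arrays in every panel but that of Slc7a11, where IMO_6x replicate 2 falls within the control range.

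The promoters of the members that rose after 1 session were read from RefSeq (build GRCr8), from 250 bases before to 50 bases after the start. Of the 199 members 167 had an entry, and of the 14 that rose after 1 session 11 had one. 4 motifs were searched on both strands. The cAMP response element TGACGTCA was found in 1.91% of 27457 rat promoters, in 4 of the 167 members (2.4%) and in 1 of the 11 that rose. Its part TGACG, which overlaps the full element where that is present, was found in 22% of all promoters, 26.3% of members and 3 of 11. The AP-1 motif was searched as TGANTCA, with any base at the centre, which is wider than the AP-1 sites TGAGTCA and TGACTCA. This pattern was found in 7.33%, 7.78% and 3 of 11, and the C/EBP-ATF composite motif TGATGNAA in 3.82%, 3.59% and 2 of 11. The 4 promoters shown are those of rises that hold the full cAMP element, the composite motif or both TGACG and the AP-1 motif, with every match in capitals on the printed strand. They lie on the minus strand at chr3:36116532-36116831 (Slc25a25), chr14:98761513-98761812 (Slc1a4), chr2:197843834-197844133 (Slc6a17) and chr7:129681352-129681651 (Slc38a1).
Slc25a25: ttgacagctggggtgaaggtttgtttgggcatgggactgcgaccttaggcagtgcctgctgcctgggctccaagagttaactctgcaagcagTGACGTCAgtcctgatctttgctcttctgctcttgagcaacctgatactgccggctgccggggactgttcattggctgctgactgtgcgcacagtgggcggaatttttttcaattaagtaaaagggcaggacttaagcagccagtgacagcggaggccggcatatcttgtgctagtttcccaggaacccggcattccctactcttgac
Slc1a4: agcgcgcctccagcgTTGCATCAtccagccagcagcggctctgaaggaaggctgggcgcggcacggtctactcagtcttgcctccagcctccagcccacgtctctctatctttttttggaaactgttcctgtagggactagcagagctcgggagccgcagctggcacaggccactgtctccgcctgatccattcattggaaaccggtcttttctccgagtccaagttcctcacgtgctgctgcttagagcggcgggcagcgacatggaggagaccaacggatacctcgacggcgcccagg
Slc6a17: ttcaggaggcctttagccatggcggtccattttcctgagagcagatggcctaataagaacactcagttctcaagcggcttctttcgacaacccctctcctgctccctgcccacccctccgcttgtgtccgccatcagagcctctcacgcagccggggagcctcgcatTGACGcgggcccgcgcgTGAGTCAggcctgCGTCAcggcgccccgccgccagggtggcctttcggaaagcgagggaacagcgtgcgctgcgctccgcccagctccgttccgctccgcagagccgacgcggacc
Slc38a1: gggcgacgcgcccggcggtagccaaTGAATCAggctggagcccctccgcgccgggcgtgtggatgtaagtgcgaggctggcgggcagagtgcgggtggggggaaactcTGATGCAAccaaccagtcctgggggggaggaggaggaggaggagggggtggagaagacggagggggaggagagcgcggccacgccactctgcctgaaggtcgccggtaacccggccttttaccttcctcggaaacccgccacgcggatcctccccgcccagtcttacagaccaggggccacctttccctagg
In Slc25a25 the capitals are the cAMP element, 158 bases before the start. In Slc1a4 they are the composite motif read on the opposite strand. In Slc6a17 they are TGACG, the AP-1 motif and TGACG on the opposite strand. In Slc38a1 they are TGAATCA, which matches the searched pattern TGANTCA but has A at its centre, and the composite motif. A match is a run of letters, and no binding was measured.

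In the mitochondrial carrier family 2 members rose after 1 session and 2 fell. Slc25a25, a calcium-dependent carrier that exchanges ATP-Mg for phosphate, was at 11.65, 11.75 and 11.00 in control, 14.18, 13.80 and 13.90 in IMO_1x and 12.86, 12.66 and 13.02 in IMO_6x. The 3 groups did not overlap, with IMO_6x between the other 2. The rise was 2.50 ± 0.23, or 5.64-fold, after 1 session (adjusted p = 0.000236) and 1.39 ± 0.23 after 6 (adjusted p = 0.00335), and the stressed groups differed by -1.11 ± 0.23 (adjusted p = 0.0212). Slc25a30, named kidney mitochondrial carrier protein 1, was at 14.22, 14.11 and 14.41 in control, 16.46, 15.73 and 15.23 in IMO_1x and 16.88, 16.90 and 17.20 in IMO_6x. Every IMO_6x array lay above every IMO_1x array, and these above every control array. It rose by 1.56 ± 0.32 after 1 session (adjusted p = 0.0153) and by 2.75 ± 0.32 after 6 (adjusted p = 0.000628).

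The step of Slc25a30 from 1 to 6 sessions, 1.19 ± 0.32 (adjusted p = 0.0469), depended on the scale and on the probe set. It was -0.0079 after quantile normalization and passed in 2 of the 9 fits without 1 array, those without IMO_1x replicate 1 or IMO_6x replicate 1. A second probe set of Slc25a30 had mean levels of 12.78, 15.56 and 13.91 in control, IMO_1x and IMO_6x, thus 2.78 above control after 1 session and 1.13 after 6. Both probe sets lay above control in both stressed groups, in opposite order. The rise after 1 session passed in 5 of 9 fits, and not without control replicate 1, 2 or 3 or IMO_1x replicate 2.

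The falls after 1 session were those of Slc25a12 and Slc25a46. Slc25a12, the aspartate-glutamate carrier aralar of the malate-aspartate shuttle, was at 12.65, 12.73 and 12.74 in control, 11.87, 11.79 and 11.90 in IMO_1x and 12.68, 12.57 and 12.53 in IMO_6x. The IMO_1x arrays lay below both other groups, which overlapped. Slc25a12 fell by 0.85 ± 0.16 after 1 session (adjusted p = 0.00913) and was 0.74 ± 0.16 higher after 6 sessions than after 1 (adjusted p = 0.0209). It passed against control in 7 of 9 fits, and not without control replicate 3 or IMO_1x replicate 2, and not with arrays centred on their medians. Slc25a46, a family member that sits in the outer mitochondrial membrane, had the same shape, at 13.57, 13.50 and 13.70 in control, 12.68, 13.01 and 12.83 in IMO_1x and 13.73, 13.55 and 13.40 in IMO_6x. It fell by 0.75 ± 0.18 (adjusted p = 0.0279) and was 0.73 ± 0.18 higher after 6 sessions than after 1 (adjusted p = 0.0342). A second probe set of Slc25a46 was lower in IMO_1x by 0.67 and in IMO_6x by 0.84, so the return after 6 sessions was not seen there. The fall of Slc25a46 passed in 3 of 9 fits, those that left out an IMO_6x array. Its step from 1 to 6 sessions passed in 1 of 9, that without IMO_6x replicate 1. That step did not pass after quantile normalization, with centred medians or with the replicate block.

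**Figure D3:**
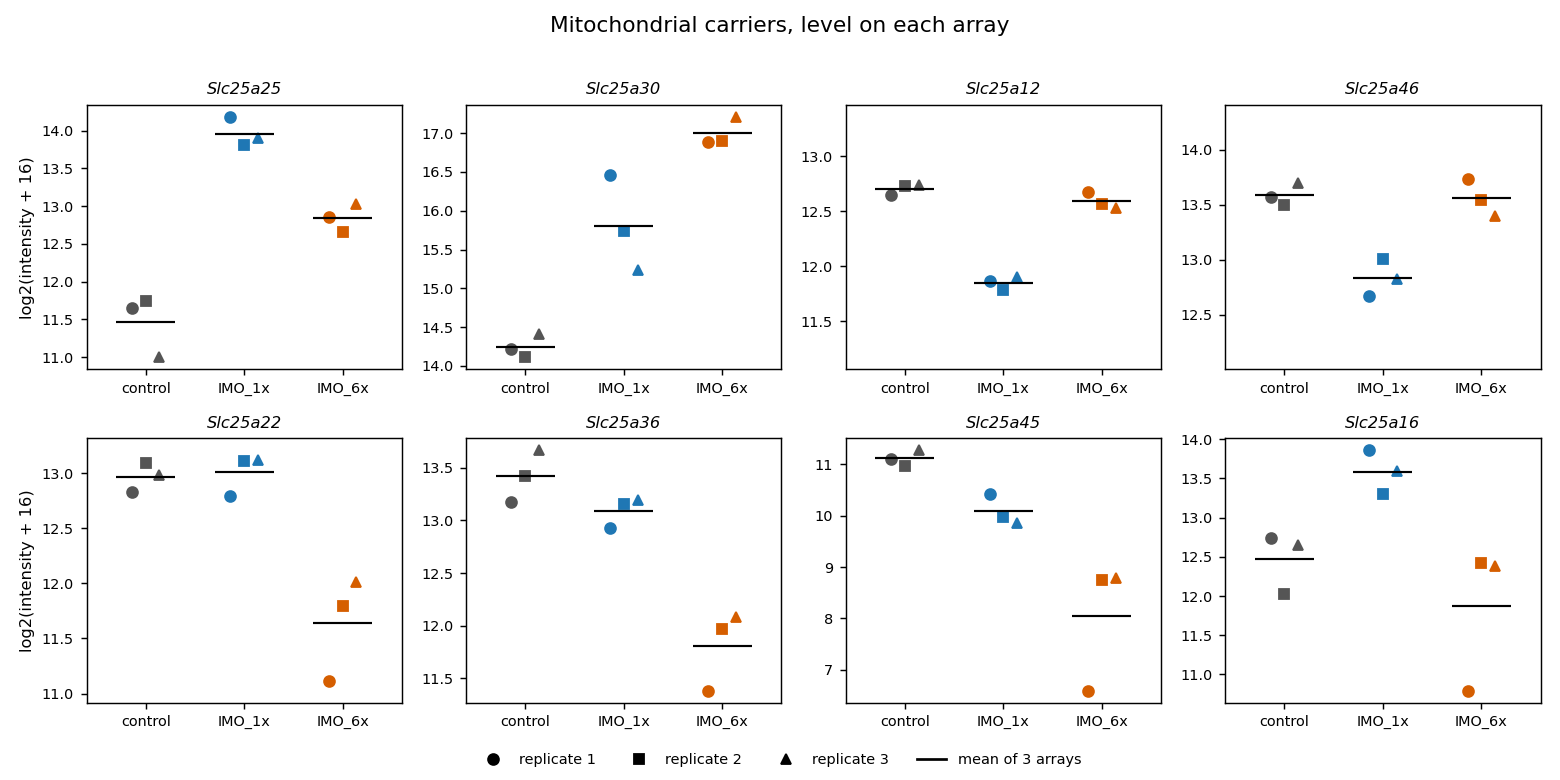
Log2(intensity + 16) of 8 members of the mitochondrial carrier family on each of the 9 arrays, drawn as for the amino acid carriers with axes that differ between panels. Slc25a25 is highest in IMO_1x, Slc25a12 and Slc25a46 are lowest there, and Slc25a22, Slc25a36 and Slc25a45 are lowest in IMO_6x.

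Among ion carriers, Slc20a1, a sodium-phosphate cotransporter of the plasma membrane, was at 13.64, 13.67 and 13.98 in control, 16.24, 15.75 and 15.31 in IMO_1x and 16.36, 16.03 and 16.15 in IMO_6x. All stressed arrays lay above all controls. It rose by 2.00 ± 0.27 after 1 session (adjusted p = 0.002) and by 2.42 ± 0.27 after 6 (adjusted p = 0.000548), and passed in 9 of 9 fits without 1 array in both. Slc4a11, a member of the bicarbonate carrier family known from the corneal endothelium, was at 11.56, 11.10 and 10.95 in control, 12.37, 13.22 and 13.45 in IMO_1x and 12.21, 11.46 and 11.33 in IMO_6x. The IMO_6x arrays overlapped the controls and lay below IMO_1x. It rose by 1.81 ± 0.34 after 1 session (adjusted p = 0.0102) and was lower after 6 sessions than after 1 by -1.34 ± 0.34 (adjusted p = 0.0359). This drop passed in 2 of 9 fits without 1 array, and not after quantile normalization, with centred medians or with the replicate block. The rise did not pass without control replicate 2 or 3 or IMO_1x replicate 3.

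Among carriers of monocarboxylates, Slc16a3, a lactate carrier of glycolytic cells, was at 8.93, 8.34 and 8.02 in control, 10.08, 10.27 and 10.51 in IMO_1x and 10.84, 9.59 and 9.67 in IMO_6x. It was higher on all stressed arrays, by 1.85 ± 0.43 (adjusted p = 0.0247) and 1.60 ± 0.43 (adjusted p = 0.0237). The mean control level of Slc16a3, 8.43, lay below the filter threshold of 8.51. The related lactate carrier Slc16a1 was higher after 1 session without overlap, at 13.95, 13.72 and 13.79 against 13.04, 12.41 and 12.61 in control, but its change of 1.14 ± 0.33 did not pass (adjusted p = 0.0603). Without IMO_6x replicate 1 it passed at the same size (adjusted p = 0.0012). Slc16a10, which carries aromatic amino acids such as tyrosine and was classed here by its family, was at 10.86, 10.44 and 10.70 in control, 11.71, 12.46 and 12.81 in IMO_1x and 11.39, 11.78 and 11.26 in IMO_6x. Every stressed array was above the controls. The rise was 1.66 ± 0.29 after 1 session (adjusted p = 0.00791), and the difference of 0.80 ± 0.29 after 6 did not pass (adjusted p = 0.0733).

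In the fits without 1 array, Slc16a10 passed after 1 session in 9 of 9 and Slc16a3 in 4 of 9. Slc16a3 failed without control replicate 2 or 3 or without any single IMO_1x replicate. Slc41a3, of a family of magnesium carriers, rose after 1 session by 1.30 ± 0.35 (adjusted p = 0.0446), from 12.74, 12.50 and 12.57 to 14.05, 13.77 and 13.89. Slc37a4, which moves glucose 6-phosphate into the endoplasmic reticulum, fell by 1.06 ± 0.28 (adjusted p = 0.0444), from 12.06, 12.44 and 12.41 to 11.61, 11.12 and 11.00. Neither pair of groups overlapped, but both calls were lost with the replicate block (adjusted p = 0.0708 for Slc41a3 and 0.0741 for Slc37a4). That of Slc37a4 was also lost after quantile normalization (adjusted p = 0.356), and each passed in 2 of 9 fits without 1 array. For Slc41a3 these left out IMO_6x replicate 1 or 3, and for Slc37a4 IMO_6x replicate 1 or 2.

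After 6 sessions more members were lower than higher. Against control 15 members rose and 25 fell, or 20.1% of the members against 24.3% of all genes tested. By direction 7.54% rose, against 9.36% of all genes, and 12.6% fell, against 14.9%. The median change was -0.31 over the members and -0.23 over all genes. The class of amino acid and peptide carriers again held 7 rises and 0 falls of 32. The glycine carrier Slc6a9, which fell, was classed with neurotransmitters and osmolytes and is not among these 32. Of 31 ion carriers 1 rose and 7 fell, of 36 mitochondrial carriers 2 rose and 5 fell, and of 5 nucleotide sugar carriers 0 rose and 3 fell. Metal carriers had 2 rises and 1 fall of 25 and sugar carriers 1 rise and 2 falls of 12. Monocarboxylate carriers and carriers of neurotransmitters and osmolytes had 1 rise and 1 fall of 9 each. Of the 14 vitamin and cofactor carriers 2 fell, and 1 member each fell among carriers of organic cations and anions (12), of urea (2) and of unsettled substrate (2). The comparison shares its control arrays with that of IMO_1x, and 10 members rose in both. The share of all genes that rose in both is not given, so this overlap is not a result about the members.

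The balance of rises and falls after 6 sessions changed with the scale. It was 19 up and 16 down after quantile normalization, against 9.16% and 8.38% of all genes. It was 8 up and 4 down with centred medians, against 4.09% and 2.01% of all genes, a setting that moves the median change of all genes from -0.23 to -0.06. Of the 40 members, 25 passed in the same direction after quantile normalization and 12 with centred medians. Those 12 were the rises of Slc1a4, Slc6a17, Slc7a14, Slc7a6, Slc20a1, Slc25a30, Slc16a3 and Slc5a3 and the falls of Slc9a3, Slc24a4, Slc26a6 and Slc13a2. Without control replicate 2 or 3 the count was 25 and 24, with 12 falls in each. No share of all genes is given for these fits. Without IMO_6x replicate 1 the count was 88, with 30 up and 58 down, when 48.3% of all genes passed, 17.6% up and 30.7% down. All 40 members were among these 88. Ion carriers then held 1 rise and 14 falls of 30, and amino acid carriers 8 rises and 3 falls of 33.

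Rises that passed after 6 sessions, beside the members described above, were those of Slc31a1, Slc5a3, Slc7a6, Slc2a13 and Slc41a2. Slc31a1, the main copper uptake carrier, was at 14.43, 14.66 and 14.18 in control, 15.27, 15.29 and 14.90 in IMO_1x and 15.75, 16.29 and 16.28 in IMO_6x. The 3 groups did not overlap. It rose by 1.68 ± 0.25 (adjusted p = 0.00205). Of 3 other probe sets of Slc31a1, which were not used in the fit, the differences after 6 sessions were 1.49, 0.33 and -1.11, and after 1 session 1.37, 0.83 and 0.91. When its probe sets were averaged, the rise after 6 sessions did not pass (0.60, adjusted p = 0.328).

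Slc5a3, a sodium-coupled carrier of the osmolyte myo-inositol, was at 11.00, 11.20 and 10.56 in control, 11.86, 11.66 and 12.05 in IMO_1x and 12.93, 12.09 and 11.87 in IMO_6x. It rose by 1.38 ± 0.30 after 6 sessions (adjusted p = 0.00955), and its 0.94 ± 0.30 after 1 session did not pass (adjusted p = 0.0828). Slc2a13, a proton-coupled carrier of the same solute, rose by 1.08 ± 0.32 (adjusted p = 0.0377), from 9.72, 10.79 and 10.29 to 10.87, 11.70 and 11.47. Both were higher on every IMO_6x array than on any control array. Slc5a3 passed in 9 of 9 fits without 1 array and Slc2a13 in 3 of 9, those without control replicate 2, IMO_1x replicate 1 or IMO_6x replicate 1. Slc7a6, an exchanger of cationic and neutral amino acids, rose by 1.19 ± 0.26 (adjusted p = 0.0102), and Slc41a2, a relative of Slc41a3, by 1.00 ± 0.23 (adjusted p = 0.0132, not without control replicate 2 or 3).

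Ion carriers that fell after 6 sessions included Slc24a4 and Slc26a6. Their mean IMO_6x levels, 7.84 and 8.05, lay below the filter threshold of 8.51. So did those of Slc9a3 (8.19), Slc25a45 (8.04), Slc13a2 (7.24), Slc14a2 (8.04) and Slc35a3 (8.50), which also fell. These genes passed the filter through their higher control and IMO_1x arrays, and their IMO_6x levels are in the range treated as dim. Slc24a4, an exchanger of sodium for calcium and potassium, was at 10.93, 10.88 and 10.68 in control, 10.81, 10.83 and 10.75 in IMO_1x and 7.33, 7.99 and 8.20 in IMO_6x. The first 2 groups overlapped and IMO_6x lay far below both. It fell by 2.99 ± 0.31 (adjusted p = 0.000411), and was lower than after 1 session by -2.96 ± 0.31 (adjusted p = 0.00709). A second probe set of Slc24a4 was higher in IMO_6x than in control by 1.15, at mean levels of 9.71 and 8.56, so the direction was not shared within the gene. With the probe sets averaged, Slc24a4 changed by -0.92 against control and -0.91 against IMO_1x, and neither passed (adjusted p = 0.132 and 0.183). Slc26a6, an anion exchanger of chloride, bicarbonate and oxalate, was at 10.71, 10.72 and 10.82 in control, 9.70, 9.87 and 9.86 in IMO_1x and 9.22, 7.82 and 7.10 in IMO_6x. Its groups did not overlap. It fell by 2.70 ± 0.49 after 6 sessions (adjusted p = 0.00483), and its -0.94 ± 0.49 after 1 session did not pass (adjusted p = 0.314).

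Slc9a3, a sodium-proton exchanger best known from kidney and gut epithelium, varied within each group. Its levels were 12.73, 10.00 and 11.17 in control, 11.47, 10.26 and 11.03 in IMO_1x and 9.76, 6.45 and 8.37 in IMO_6x. Control replicate 2 was only slightly above IMO_6x replicate 1. It fell by 3.11 ± 0.86 (adjusted p = 0.027), but not without control replicate 1 or 3 or IMO_6x replicate 2 or 3. Slc4a3, a chloride-bicarbonate exchanger, fell by 1.67 ± 0.21 (adjusted p = 0.000838), from 12.11, 12.54 and 12.20 to 10.35, 10.61 and 10.89. Slc12a9, a relative of the cation-chloride cotransporters, fell by 1.87 ± 0.27 (adjusted p = 0.0018), from 11.30, 11.40 and 11.42 to 9.08, 9.40 and 10.05. In both the groups were apart, and both passed in 9 of 9 fits without 1 array but not with centred medians (adjusted p = 0.085 and 0.07).

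Slc4a7, a sodium-bicarbonate cotransporter, was at 12.58, 12.03 and 12.20 in control, 12.81, 13.09 and 13.13 in IMO_1x and 9.79, 11.31 and 11.55 in IMO_6x. IMO_1x lay above control and IMO_6x below it. It fell by 1.39 ± 0.40 after 6 sessions (adjusted p = 0.0333), while the 0.74 ± 0.40 after 1 session did not pass (adjusted p = 0.337). Its second probe set was higher than control in IMO_6x, by 1.11, and in IMO_1x, by 1.29. The fall passed in 3 of 9 fits, those that left out an IMO_6x array. Slc12a7, a potassium-chloride cotransporter, fell by 0.64 ± 0.20 (adjusted p = 0.0482) and passed in 1 of 9 fits, that without IMO_6x replicate 1.

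**Figure D4:**
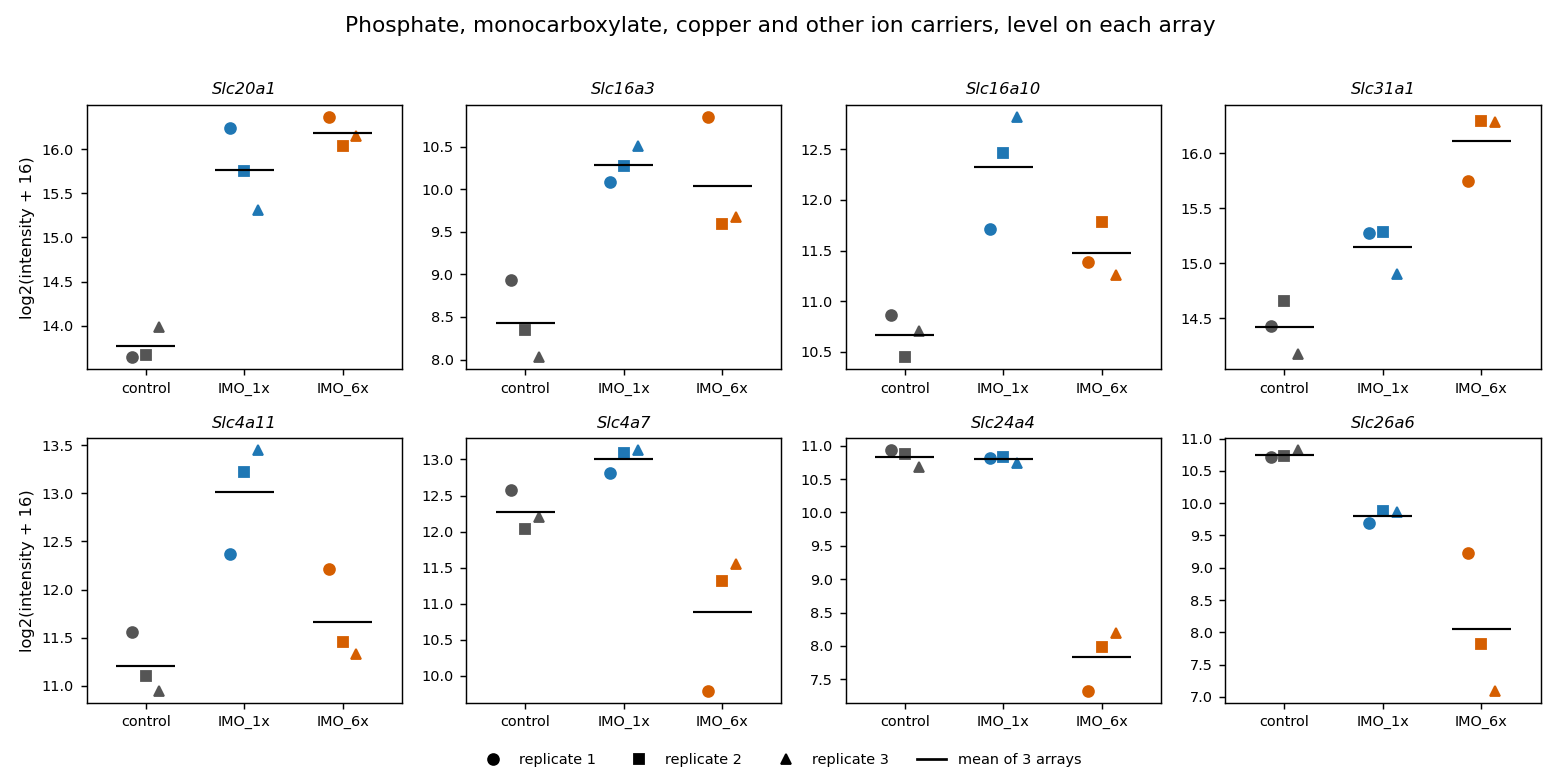
Log2(intensity + 16) of 8 carriers of phosphate, monocarboxylates, copper and other ions on each of the 9 arrays, drawn as for the amino acid carriers with axes that differ between panels. Slc20a1, Slc16a3, Slc16a10 and Slc31a1 are higher on all stressed arrays, Slc4a11 is highest in IMO_1x, and Slc4a7, Slc24a4 and Slc26a6 are lowest in IMO_6x.

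Falls in the mitochondrial family after 6 sessions included 2 that passed in all 9 fits without 1 array and had close replicates. Slc25a36, a carrier of pyrimidine nucleotides, was at 13.18, 13.43 and 13.67 in control, 12.93, 13.16 and 13.19 in IMO_1x and 11.38, 11.97 and 12.08 in IMO_6x. It fell by 1.61 ± 0.23 (adjusted p = 0.00161). Slc25a22, a carrier of glutamate, was at 12.83, 13.10 and 12.98 in control, 12.79, 13.11 and 13.12 in IMO_1x and 11.11, 11.80 and 12.02 in IMO_6x. It fell by 1.33 ± 0.24 (adjusted p = 0.00496). In both genes control and IMO_1x overlapped and IMO_6x lay below, and neither passed with centred medians (adjusted p = 0.157 and 0.263). Slc25a45 fell by 3.06 ± 0.55 (adjusted p = 0.00435), from 11.10, 10.96 and 11.26 to 6.60, 8.75 and 8.79, with IMO_6x replicate 1 the lowest, and the change was -2.34 without that array (adjusted p = 6.3e-05). Without that array and with quantile normalization it was -1.76, and with all 9 arrays the fall did not pass after quantile normalization or with centred medians (adjusted p = 0.055 in each). Slc25a44, a carrier of branched-chain amino acids, fell by 1.40 ± 0.36 (adjusted p = 0.0196), not without control replicate 1, 2 or 3, and its second probe set was higher than control by 0.67. Slc25a11, which exchanges oxoglutarate for malate, fell by 0.88 ± 0.26 (adjusted p = 0.0351), and passed in the 3 fits of 9 that left out an IMO_6x array.

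Nucleotide sugar carriers feed glycosylation in the Golgi, and 3 of 5 fell after 6 sessions. Slc35a5 was at 11.64, 11.72 and 11.54 in control, 10.46, 10.42 and 10.40 in IMO_1x and 7.81, 10.73 and 10.16 in IMO_6x. IMO_6x replicates 2 and 3 were at the level of the IMO_1x arrays, and replicate 1 was far below. It fell by 2.07 ± 0.61 (adjusted p = 0.0345), and by 1.19 without that array (adjusted p = 0.00094). Its change after 1 session, -1.21 ± 0.61 (adjusted p = 0.288), passed at the same size without IMO_6x replicate 1 (adjusted p = 0.00075). Slc35a3, a carrier of UDP-N-acetylglucosamine, fell by 1.63 ± 0.50 (adjusted p = 0.0416), and Slc35a1, the CMP-sialic acid carrier, by 0.64 ± 0.16 (adjusted p = 0.0191). None of the 3 passed after quantile normalization or with centred medians. Slc35a5 and Slc35a3 passed in 3 and 2 of 9 fits without 1 array and failed without any single control or IMO_1x replicate, and Slc35a1 failed without control replicate 2 or 3 or IMO_6x replicate 3.

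Slc6a9, the glycine carrier GlyT1, fell by 1.60 ± 0.30 after 6 sessions (adjusted p = 0.00538), from 12.48, 11.76 and 12.26 to 10.48, 10.19 and 11.04. Slc33a1, which brings acetyl-CoA into the endoplasmic reticulum, fell by 1.26 ± 0.24 (adjusted p = 0.00589), from 13.09, 12.89 and 12.97 to 11.19, 11.83 and 12.14. Slc37a4, lower after 1 session, fell by 1.46 ± 0.28 after 6 (adjusted p = 0.00626), to 10.29, 11.19 and 11.06. These 3 had groups apart from control and passed in 9 of 9 fits without 1 array. With centred medians none of the 3 passed (adjusted p = 0.091 for Slc6a9, 0.28 for Slc33a1 and 0.197 for Slc37a4), and after quantile normalization Slc37a4 did not either (adjusted p = 0.064). Slc13a2, a sodium-coupled carrier of dicarboxylates and citrate, fell by 2.29 ± 0.57 (adjusted p = 0.0185), and Slc14a2, a urea carrier, by 1.72 ± 0.42 (adjusted p = 0.0165). Both failed without control replicate 1 or 2, and Slc13a2 without control replicate 3. Slc14a2 also failed after quantile normalization and with centred medians. The other falls were those of Slc45a4, Slc66a3, Slc39a13, Slc22a5 and Slc48a1, between -1.71 and -0.65. In this order they passed in 9, 3, 1, 2 and 6 of 9 fits without 1 array. None of them passed after quantile normalization or with centred medians.

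The question of 6 sessions against 1 is whether the response differed with repetition. Between these groups 5 members were higher and 15 lower after 6 sessions, 10.1% of the members against 9.84% of all genes. By direction 2.51% were higher, against 5.21% of all genes, and 7.54% lower, against 4.63%. The higher members were Slc7a14, Slc25a30, Slc31a1, Slc25a12 and Slc25a46. For Slc31a1 the step was 0.96 ± 0.25 (adjusted p = 0.044), and with the mean of its probe sets it was -0.36. Of the 15 lower members 10 had also fallen against control after 6 sessions, and Slc25a25 and Slc4a11 had risen after 1. Slc1a5, Slc7a8 and Slc25a16 passed only in this comparison. Of the 10 members that rose against control in both groups, Slc7a14 and Slc25a30 were higher and Slc25a25 lower after 6 sessions than after 1. The other 7 did not pass this test.

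Slc1a5, a glutamine carrier of the same family as Slc1a4, was at 11.05, 11.18 and 11.02 in control, 11.50, 11.90 and 11.97 in IMO_1x and 10.63, 11.01 and 10.77 in IMO_6x. IMO_1x lay above the controls and IMO_6x below them. The stressed groups differed by -0.99 ± 0.21 (adjusted p = 0.0217), and the 0.71 ± 0.21 of IMO_1x over control did not pass (adjusted p = 0.0661). Slc7a8, a second large neutral amino acid carrier that pairs with Slc3a2, differed by -1.20 ± 0.33 (adjusted p = 0.0499), from 13.55, 13.88 and 13.67 in IMO_1x to 11.61, 13.00 and 12.89 in IMO_6x. Slc25a16 differed by -1.71 ± 0.41 (adjusted p = 0.0325), and by -1.18 without IMO_6x replicate 1. Slc1a5, Slc7a8 and Slc25a16 passed in 6, 2 and 3 of 9 fits without 1 array. None of the 3 passed after quantile normalization or with centred medians. Slc7a8 also failed with a pseudocount of 1, and Slc7a8 and Slc25a16 with the replicate block.

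The comparison of the stressed groups was the least stable. Its count of 20 was 8, 1 and 0 without IMO_1x replicate 1, 2 or 3, where 34 members had an unadjusted p under 0.05 in the last case, 11 without any single control replicate, and 13 without IMO_6x replicate 3. It was 66, with 20 higher and 46 lower, without IMO_6x replicate 1, when 32.4% of all genes passed, 15.1% higher and 17.3% lower. It was 10 after quantile normalization, with 2 higher and 8 lower, when 5.59% of all genes passed. With centred medians it was 1, Slc24a4, which was lower, when 0.532% of all genes passed. A limma fit of only the 6 arrays of stressed rats called 0 members, with 35 at an unadjusted p under 0.05. No share of all genes is given for this fit, or for those without a control replicate, an IMO_1x replicate or IMO_6x replicate 3.

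The brightest members of several classes did not pass in any comparison. Slc23a2, the sodium-coupled ascorbate carrier, was at 14.82, 14.77 and 15.04 in control and 16.25, 15.59 and 15.23 in IMO_1x, above every control. In IMO_6x it was at 12.78, 15.60 and 15.80, with replicate 1 far below. Its changes of 0.81 ± 0.68 and -0.15 ± 0.68 did not pass (adjusted p = 0.607 and 0.895). Without IMO_6x replicate 1 it was higher by 0.81 and 0.82, and both passed (adjusted p = 0.02 and 0.021). A second probe set of Slc23a2, over all arrays, differed from control by 1.11 in IMO_1x and by -2.15 in IMO_6x. Slc6a4, the serotonin carrier, was at 14.97, 14.57 and 14.37 in control, 14.93, 14.66 and 14.44 in IMO_1x and 14.07, 15.52 and 15.24 in IMO_6x, with changes of 0.04 ± 0.36 and 0.31 ± 0.36 (adjusted p = 0.993 and 0.574). Slc25a3, the mitochondrial phosphate carrier, changed by 0.26 ± 0.42 and 0.78 ± 0.42 (adjusted p = 0.859 and 0.203), and Slc2a3, a glucose carrier of neurons, by 0.66 ± 0.35 and 0.10 ± 0.35 (adjusted p = 0.309 and 0.864). These intervals are wide and do not show that the levels were equal.

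Other probe sets of the same genes, kept by the filter but not used in the fit, were available for some members. After 1 session all 5 such probe sets of 4 members that passed moved in the same direction. They include 2 of Slc6a17, higher than control by 1.56 and 1.72, and 1 of Slc38a1, higher by 1.11. After 6 sessions 14 of 18 did, with exceptions in Slc31a1, Slc4a7, Slc24a4 and Slc25a44. Between the stressed groups 6 of 11 did.

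A second list held 26 carriers outside the Slc naming pattern and partners of carriers, such as voltage-dependent anion channels and the pyruvate carrier. Of these 21 were used, and Ucp1 and Flvcr2 did not pass the filter. After 1 session 0 passed in either direction, with a median change of 0.08. After 6 sessions 1 rose and 2 fell, with a median of -0.01. Emb, embigin, a chaperone of lactate carriers, rose by 1.34 ± 0.19 (adjusted p = 0.0017), from 11.69, 11.72 and 11.63 to 12.73, 13.28 and 13.04, with all IMO_6x arrays above all others. Ucp2, a mitochondrial uncoupling protein, fell by 1.26 ± 0.25 (adjusted p = 0.00728) and Slco1a4, an organic anion carrier, by 1.71 ± 0.46 (adjusted p = 0.025). The mean IMO_6x level of Slco1a4, 7.62, lay below the filter threshold of 8.51. Bsg, basigin, the chaperone of Slc16a1 and Slc16a3, was at 14.81, 14.82 and 14.80 in control, 14.87, 14.94 and 14.70 in IMO_1x and 13.85, 15.59 and 15.58 in IMO_6x.

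**Figure D5:**
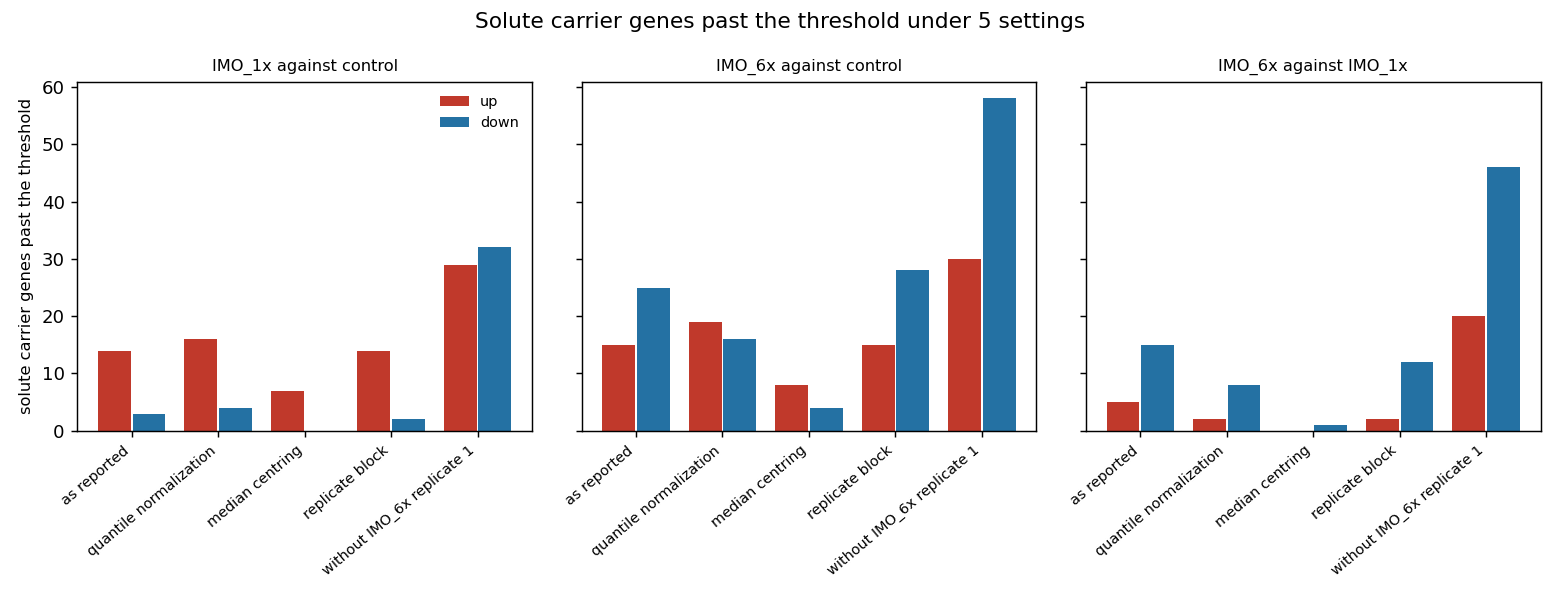
Number of members past the threshold, up in red and down in blue, in the 3 comparisons under 5 settings, with the vertical axis from 0. Leaving out IMO_6x replicate 1 raises the counts to 61, 88 and 66, and median centring lowers them to 7, 12 and 1.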

How the data were processed

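The deposited table held 1 intensity per probe set (31099 of them) for each of 9 Affymetrix arrays, on a linear scale. Per the labels, RNA was labelled and hybridised by Affymetrix and GeneTraffic was named for data analysis. How probes were summarised and background removed, and to what target arrays were scaled, is not given in the sources used here. The 2% trimmed means of the deposited intensities were 2500.57 to 2501.03, as after a scaling of whole arrays. Such scaling ties a gene's level to the brightest genes of its array. No counts exist, and the number of arrays limits the precision.

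Gene symbols came from GEO's platform annotation, where 20826 probe sets have 1 symbol, 436 several and 9780 none, beside 57 array controls, which were left out. All 199 members kept their symbol in RefSeq's present gene table. Promoters came from RefSeq (GRCr8). Groups were taken from the sample titles.

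Values were taken to log2(intensity + 16), probe sets below the 30% point of the mean levels were dropped, and the brightest probe set stood for each gene. The linear model of limma 3.58.1 (R 4.3.3), moderated by eBayes with the trend option and with 6 residual degrees of freedom, was fitted to all 9 arrays without covariates. Tests were two-sided, with Benjamini-Hochberg adjusted p under 0.05 over 11287 genes as the threshold. Promoter searches and plots used Python 3.11.15, pandas 2.3.3 and matplotlib 3.10.9.

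The labels do not say whether arrays with the same replicate number are paired. In IMO_1x and control the deviations of same-numbered arrays from their group means correlated at 0.508, 0.360 and 0.250 across genes. For IMO_6x against control they did so at 0.142, 0.0602 and 0.158, and for IMO_6x against IMO_1x at 0.150, 0.0775 and 0.0877. The main fit used no pairs, so its p-values are unpaired, and a fit with the replicate number as a block is an alternative. For IMO_1x against control the block fit called 16 members, and 14 of the 17 calls of the main fit were among them. On simulated data with 200 changed genes of 11287, over 20 draws each, a log2 change of 2 was recovered in 59% to 75% for IMO_1x against control and 58.5% to 70.5% for IMO_6x against control. A change of 1 was recovered in 0% to 20% (median 2%) and 0% to 16% (median 0%), so single draws vary widely at that size. Every simulated array was drawn independently, with 1 SD per gene shared by the 3 groups. The larger spread of the real IMO_6x arrays (members' median SD 0.659, against 0.244 in control) was not simulated. The similar recovery in the 2 comparisons was thus fixed by the setup and does not measure that of the real IMO_6x arrays.

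The members, the substrate classes, the partner list and the marker lists were chosen with earlier results of these data known. Named genes were, in each comparison, the 8 largest rises and 8 largest falls past the threshold without overlap of the groups. To these were added, in each class, the brightest member and the one with the smallest adjusted p, members whose probe sets disagree, and partner genes past the threshold. Members named for other reasons, such as Slc3a2, Slc7a6, Slc2a13, Slc41a2, Slc12a7, Slc25a11, Slc25a44, Slc35a3 and the partner Bsg, were chosen after their values were seen. The 22 alternatives varied the filter, normalization, pseudocount, array weights, probe set choice, block, arrays in the fit, trend and fold threshold, and left out each array in turn.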

Additional observations from a re-analysis of the deposited data

Results flagged for a closer look

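For 20 members the change after 6 sessions differed from that after 1, by limma's test of IMO_6x against IMO_1x in the fit of all 9 arrays. All values are log2 differences, IMO_6x minus IMO_1x. The 5 positive ones were 1.30 for Slc7a14, 1.19 for Slc25a30, 0.96 for Slc31a1, 0.74 for Slc25a12 and 0.73 for Slc25a46. Members of the amino acid and peptide class with a negative difference were Slc1a5 at -0.99 and Slc7a8 at -1.20. The glycine carrier Slc6a9, classed with neurotransmitters and osmolytes, was at -1.36. In the mitochondrial family the members with a negative difference were Slc25a25 at -1.11, Slc25a36 at -1.28, Slc25a22 at -1.37, Slc25a16 at -1.71 and Slc25a45 at -2.04. Among ion carriers they were Slc4a3 at -1.30, Slc4a11 at -1.34, Slc12a9 at -1.39, Slc4a7 at -2.12 and Slc24a4 at -2.96. The acetyl-CoA carrier Slc33a1 was at -0.88 and the urea carrier Slc14a2 at -1.83. Adjusted p-values in limma ranged from 0.00709 for Slc24a4 to 0.0499 for Slc7a8. All 20 passed without IMO_6x replicate 1, whose actin 3′/5′ ratio was 231, but so did 32.4% of all genes. The ratios of IMO_6x replicates 2 and 3, 6.11 and 8.87, were also above those of the control and IMO_1x arrays. None of the 20 members passed without IMO_1x replicate 3, where 34 members had an unadjusted p under 0.05. The part of RNA completeness in these differences was not tested.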

How the results depend on the processing

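The members' counts after 1 session, after 6 sessions and between the stressed groups (17, 40 and 20) stayed within 1.5 times under the settings that keep all 9 arrays in 1 fit with another filter, pseudocount, probe set choice, block, trend or fold: the filter at 0 or 50%, pseudocounts of 1 or 64, the mean of probe sets, the replicate block, no trend, and a fold of at least 2. With the replicate block they were 16, 43 and 14, and in IMO_1x against control it changed, beside the 3 calls given above, those of Slc66a2 and Slc2a13, which then passed (adjusted p = 0.027 and 0.036), and no other.

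Counts that moved further were 10 between the stressed groups after quantile normalization, and 7, 12 and 1 with centred medians. They were 80, 103 and 96 with array weights, where the iteration for the weights stopped early, and 59, 24 and 0 with only the 2 groups compared. They were 58, 67 and 50 with quantile normalization and without IMO_6x replicate 1. Leaving out 1 array gave 7 to 61, 24 to 88 and 0 to 66, in each case with the highest count without IMO_6x replicate 1. For array weights, the fits of 2 groups and the combined setting no share of all genes is given. Those counts are not results about the members. Of the 49 named results that passed, 847 of 1072 values kept direction and side, 222 lost the threshold and 3 changed sign. These were Slc25a30 between the stressed groups, at -0.0079 after quantile normalization and -0.23 with the mean of its probe sets, and Slc31a1, at -0.36 with that mean. Of 813 values of the 37 named results that did not pass, 69 passed and 33 changed sign.

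After quantile normalization the sign changed for Slc6a4, at -0.19 after 1 session and -0.16 after 6, and for Slc25a3 after 6, at -0.24. Between the stressed groups it did so for Slc20a1 (-0.60), Slc25a3 (-0.47), Slc38a2 (-0.054) and Slc7a6os (0.057). Without IMO_6x replicate 1 as well, Slc6a4 was at -0.18 after 1 session, and Slc20a1, Slc25a3 and Slc38a2 at -0.60, -0.16 and -0.040 between the stressed groups. With centred medians Slc22a17 and Slc23a2 were at 0.11 and 0.022 after 6 sessions. With array weights Slc23a2 was at 0.83 after 6 sessions and 0.20 between the stressed groups, and Slc27a1 at 0.028 there. Slc2a3 was at -1.15 after 6 sessions with the mean of its probe sets.

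Without 1 array, ranges that crossed 0 after 1 session were -0.12 to 0.25 for Slc14a2, -0.010 to 0.37 for Slc22a17 and -0.094 to 0.21 for Slc6a4. After 6 sessions they were -0.26 to 0.13 for Slc22a17, -0.69 to 0.82 for Slc23a2 and -0.18 to 0.51 for Slc2a3. Between the stressed groups they were -1.50 to 0.0094 for Slc23a2, -0.64 to 0.036 for Slc27a1, -0.019 to 0.70 for Slc6a4 and -0.25 to 0.013 for Slc7a6os. The cause of these shifts was not tested.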

Other observations

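The members here passed no test and were picked for their values. The adenine nucleotide carriers Slc25a4 and Slc25a5, which exchange ADP and ATP across the inner mitochondrial membrane, were among the bright members. Slc25a5 was at 15.10, 14.68 and 14.85 in control, 15.23, 14.87 and 14.70 in IMO_1x and 12.69, 15.47 and 15.67 in IMO_6x. Slc25a4 was at 14.53, 14.50 and 14.52 in control, 14.49, 14.50 and 14.29 in IMO_1x and 13.03, 15.05 and 14.82 in IMO_6x. In both genes IMO_6x replicate 1 was the lowest array and replicates 2 and 3 the highest.

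Slc5a7, the high-affinity choline carrier of cholinergic neurons, was at 9.41, 8.83 and 7.17 in control, 10.43, 10.48 and 10.23 in IMO_1x and 6.71, 9.49 and 9.28 in IMO_6x. The IMO_1x arrays lay above all others, but the difference of 1.91 ± 0.80 from control did not pass in limma (adjusted p = 0.188).

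Slc3a1, the heavy chain of a cystine carrier of kidney and gut, differed more between replicates than between groups. It was at 12.69, 9.11 and 10.10 in control, 12.90, 9.83 and 9.63 in IMO_1x and 11.00, 9.51 and 10.60 in IMO_6x, with replicate 1 the highest array of each group. Slc6a5, the glycine carrier GlyT2, was likewise highest in replicate 1 of each group, at 10.76, 12.41 and 10.41, against 7.51 to 9.89 on the other arrays.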
